A study of Mus musculus with 13 samples.

Results

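Asns, Slc25a13 and Tars (named Tars1 in newer tables) are 3 genes of amino-acid supply among the 56923 gene IDs of each count file, read here in CD45-positive cells sorted from subcutaneous EL4 tumours. They were chosen by name and by position, since they lie in stretches of chromosomes 6 and 15 where gene names match their counts, and with the difference between the groups already known. All 3 passed the filter on low counts, among 10422 IDs tested. EL4 is a mouse T-cell lymphoma line, so tumour cells are themselves CD45-positive. The vector group held 7 libraries from tumours of EL4 cells that carried a vector, and the PSGL1_KO group 6 libraries from tumours of EL4 cells with a knockout of PSGL1, a selectin ligand encoded by Selplg. Tumour cells, 500000 per mouse, were placed under the skin of mice aged 6 to 8 weeks and the tumours were taken at about day 20. The labels name neither the strain of the mice nor the number of knockout clones, and they do not say that each library came from its own mouse, so errors and p-values cover the spread from library to library, which may be technical. The treatment labels count the name of the line upwards from sample to sample (vec-EL3, vec-EL4 and so on), and EL4 was taken from the titles.

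Asparagine synthetase, the product of Asns, makes asparagine from aspartate with glutamine as the nitrogen donor, and lymphoid tumours with little of it depend on asparagine from outside, which is the basis of asparaginase treatment. Slc25a13 encodes citrin, a carrier of the inner mitochondrial membrane that exports aspartate in exchange for glutamate. Tars encodes the cytosolic threonyl-tRNA synthetase, which joins threonine to its transfer RNA for protein synthesis. Asns is a well-known target of the transcription factor ATF4, which acts when amino acids run short, and synthetase genes of the cytosol such as Tars are also counted among its targets. ATF4 and its C/EBP partners bind a composite element with the letters TGATGNAA.

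The promoters of Asns and Tars are shown because both hold this element next to the start of the gene. Each sequence covers 250 bases before to 50 bases after the RefSeq start on GRCm38.p6, reads 5′ to 3′ on the minus strand of the chromosome, which is the strand of the gene, and has the element in capitals. The Asns window is chr6:7693160-7693459 and the Tars window is chr15:11399609-11399908.
Asns: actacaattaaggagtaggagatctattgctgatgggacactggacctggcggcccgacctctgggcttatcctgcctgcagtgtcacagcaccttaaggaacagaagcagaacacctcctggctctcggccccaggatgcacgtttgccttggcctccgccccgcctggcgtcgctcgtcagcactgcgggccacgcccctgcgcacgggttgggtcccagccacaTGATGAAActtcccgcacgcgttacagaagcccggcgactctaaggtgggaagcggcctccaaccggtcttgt
Tars: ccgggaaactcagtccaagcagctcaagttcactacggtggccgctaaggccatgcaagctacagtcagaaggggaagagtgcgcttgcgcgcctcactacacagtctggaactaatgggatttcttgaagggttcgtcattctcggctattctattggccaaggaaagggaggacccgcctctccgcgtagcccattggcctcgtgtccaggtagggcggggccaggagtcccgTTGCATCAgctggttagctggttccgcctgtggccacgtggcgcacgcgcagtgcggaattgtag

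In Asns the letters TGATGAAA lie on the strand of the gene, from 23 to 16 bases before the RefSeq start. In GENCODE the gene starts further upstream, at position 7693254, so by that annotation the element lies inside the gene. In Tars the element reads TTGCATCA, its reverse complement, from 15 to 8 bases before the RefSeq start. The RefSeq window of Slc25a13 (chr6:6217124-6217423) has no match on either strand. Among all 32851 promoter windows of this length, 3.97% hold TGATGNAA or its reverse complement TTNCATCA. A match is a description of these letters and does not show that a factor was bound.

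Asns was lower in every PSGL1_KO library than in any vector library. Asns (ENSMUSG00000029752.13, GRCm38 chromosome 6, 7675169 to 7693254, minus strand, 13 exon blocks) had 3282 to 6016 counts in vector and 1946 to 3293 counts in PSGL1_KO libraries. In CPM, counts scaled to library size with TMM factors, its level in vector libraries ran from 790.5 over a median of 1078 to 1282 CPM. In PSGL1_KO libraries it ran from 361.4 over a median of 505.9 to 646.2 CPM. The groups did not overlap, and the lowest vector library was replicate 5. For this separation and those given below, the share of all IDs with groups apart was not counted. How unusual such a separation is in these data is therefore not known. The means were 1077 ± 162 CPM (SD, n = 7) and 509.1 ± 117 CPM (SD, n = 6), a ratio of 2.12 between vector and PSGL1_KO. The log2 fold change (log2FC, PSGL1_KO minus vector, from a fit over all IDs) was -1.08 ± 0.17 (SE), with a 95% interval from -1.43 to -0.73. Over all 10422 IDs tested in this contrast, 9.02% were called higher and 5.49% lower in PSGL1_KO. The difference in Asns was in view when the gene was chosen, so it is a description with no test. In a sort of mixed cells, fewer cells of a type and less RNA per cell cannot be told apart.

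Tars, the other gene with the element, had nearly equal means in the groups and a wider spread in PSGL1_KO. Tars (ENSMUSG00000022241.7, GRCm38 chromosome 15, 11382301 to 11399665, minus strand, 17 exon blocks) had 731.8 to 922.5 CPM in vector libraries, with a median of 822.3 CPM. In PSGL1_KO libraries it had 666.8 to 1042 CPM, with a median of 774.6 CPM. The PSGL1_KO libraries lay on both sides of the vector range, 3 below and 2 above it. The means were 820.5 ± 59.1 CPM (SD, n = 7) and 822.7 ± 154 CPM (SD, n = 6). The log2FC was 0.00 ± 0.14, with an interval from -0.29 to 0.30, and its sign turned with the scaling: it was -0.24 with factors taken from the protein-coding IDs of the stretches.

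Slc25a13 was scarcely detected and was higher in PSGL1_KO. Slc25a13 (ENSMUSG00000015112.16, GRCm38 chromosome 6, 6041218 to 6217173, minus strand, 20 exon blocks) had 7 to 12 counts in vector libraries, with a median of 10. In PSGL1_KO libraries it had 10, 13, 29, 38, 34 and 22 counts in replicates 1 to 6. Scaled, these were 1.78 to 2.87 CPM in vector and 2.42 to 6.37 CPM in PSGL1_KO, and in 5 of the 6 PSGL1_KO libraries the level exceeded the whole vector range. The remaining one, replicate 1, lay inside that range. The log2FC was 1.05 ± 0.28, with an interval from 0.46 to 1.64. With so few counts, counting error is a large part of each single value.

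**Figure D1:**
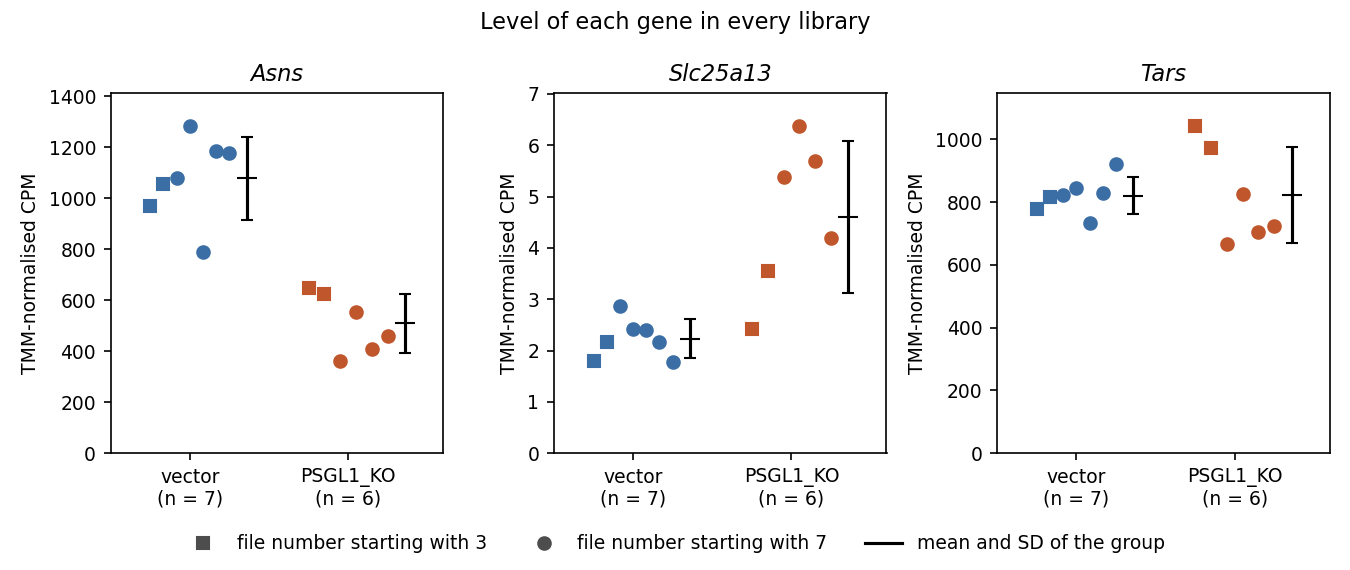
Each point is 1 library, and the y axes give its level in TMM-normalised CPM, starting at 0. Squares have file numbers starting with 3 and circles with 7, and black bars are the mean and SD of the group. Asns separates the groups at 646.2 against 790.5 CPM, Slc25a13 is higher in 5 of 6 PSGL1_KO libraries, and in Tars the 2 PSGL1_KO squares lie above and 3 of the 4 circles below all vector libraries.

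Per length, the 3 genes kept the order Asns, Tars, Slc25a13 in both groups. Levels per length are CPM divided by the length of all annotated exons together, which is 2735 bases in Asns, 5901 in Tars and 3798 in Slc25a13. In vector libraries Asns had 394 ± 59.3 CPM per kb, Tars 139 ± 10.0 and Slc25a13 0.587 ± 0.101 (SD, n = 7). In PSGL1_KO libraries Asns had 186 ± 42.8 CPM per kb, Tars 139 ± 26.1 and Slc25a13 1.21 ± 0.391 (SD, n = 6). The ranges of Asns and Tars per length overlapped between PSGL1_KO libraries, while within each single library of either group Asns was above Tars. Among 307 protein-coding IDs tested in the stretches, Asns held rank 16 from the top per length, Tars rank 35 and Slc25a13 rank 292. The median of these IDs was 22.6 CPM per kb.

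Set against Tars within the same library, Asns separated the groups more widely, and this ratio needs no scaling factor. The number of Asns counts per Tars count ran from 1.08 over a median of 1.30 to 1.52 in vector libraries. In PSGL1_KO libraries it ran from 0.542 over a median of 0.628 to 0.669. All 7 vector libraries had more Asns than Tars counts and all 6 PSGL1_KO libraries fewer. The means were 1.31 ± 0.139 (SD, n = 7) and 0.615 ± 0.046 (SD, n = 6). Slc25a13 moved the other way, from 0.151 to 0.305 counts per 100 Asns counts in vector libraries to 0.374 to 1.49 in PSGL1_KO libraries, without overlap. Against Tars, the ranges of Slc25a13 overlapped, at 0.193 to 0.349 and 0.232 to 0.808 counts per 100 Tars counts. These ratios hold the same difference between groups as the levels and are descriptions.

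**Figure D2:**
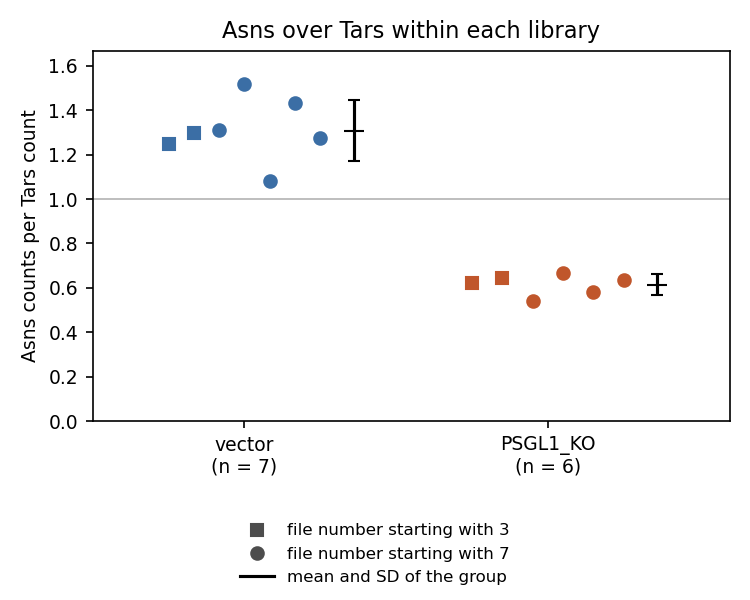
The y axis gives Asns counts divided by Tars counts in each of the 13 libraries, with no scaling factor. Squares and circles are file numbers starting with 3 and 7, black bars the mean and SD, and the grey line marks equal counts. Vector libraries sit at 1.08 to 1.52 and PSGL1_KO libraries at 0.542 to 0.669, with squares and circles intermixed in each group.

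The libraries fall into file numbers that start with 3 (replicates 1 and 2 of each group) and with 7 (the rest), and what this number marks is not given in the sources used here. With the group in the model, the intervals of Asns, Slc25a13 and Tars between the file numbers all included 0. The members' levels by group and file number were in view when they were chosen, so this is a description with no test. Of all IDs, 20.9% were higher and 18.9% lower in number 7 in the edgeR quasi-likelihood test. The log2FC of number 7 minus number 3 was -0.20 for Asns (interval -0.51 to 0.12), -0.20 for Tars (-0.46 to 0.05) and 0.57 for Slc25a13 (-0.07 to 1.21). These intervals still allow sizeable differences. Within 1 group alone the same log2FC is a description too. Within the PSGL1_KO libraries it was -0.50 for Asns, -0.45 for Tars and 0.88 for Slc25a13. Within the vector libraries it was 0.09 for Asns and 0.03 for Tars, and no fit was had for Slc25a13. For Asns and Tars the log2FC over both groups is thus an average of unlike values.

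Within each file number Asns was lower in PSGL1_KO, by different amounts. Within number 7, Asns had 790.5 to 1282 CPM in 5 vector and 361.4 to 552 CPM in 4 PSGL1_KO libraries, and its log2FC was -1.31 (interval -1.64 to -0.99). Within number 3, it had 970.9 and 1057 CPM in vector and 646.2 and 625.9 CPM in PSGL1_KO, and its log2FC was -0.64 (-1.01 to -0.28). The groups did not overlap in either. For number 3 this rests on 2 libraries per group, and Slc25a13 and Tars did not overlap there either. With so few libraries separation by itself says little, and the share of all IDs that separated there was not counted. The log2FC within number 7 minus that within number 3 was -0.63, with an interval from -1.15 to -0.11, and it is a description, since these values were in view too.

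Tars shifted between the file numbers by a similar amount. Within number 7 its log2FC was -0.19 (interval -0.42 to 0.03), with 3 of 4 PSGL1_KO libraries below every vector library. Within number 3 it was 0.37 (0.01 to 0.74), with 973.1 and 1042 CPM in PSGL1_KO above 776.8 and 815.6 CPM in vector. The difference of these log2FC was -0.52 (-0.92 to -0.13). Such a negative difference was not particular to Asns and Tars. Several genes named below, Sem1, Melk, Il7r and Tox among them, had one at least as large as that of Tars, while others went the other way. Asns counts per Tars count, by contrast, stood at 1.27 and 1.32 in the vector libraries of numbers 3 and 7, and at 0.632 and 0.607 in the PSGL1_KO libraries. The ratio thus moved little between the file numbers in either group. Slc25a13 had a log2FC of 1.20 (0.58 to 1.82) within number 7 and 0.60 (-0.68 to 1.88) within number 3, where the vector libraries had 7 and 10 counts and the PSGL1_KO libraries 10 and 13.

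**Figure D3:**
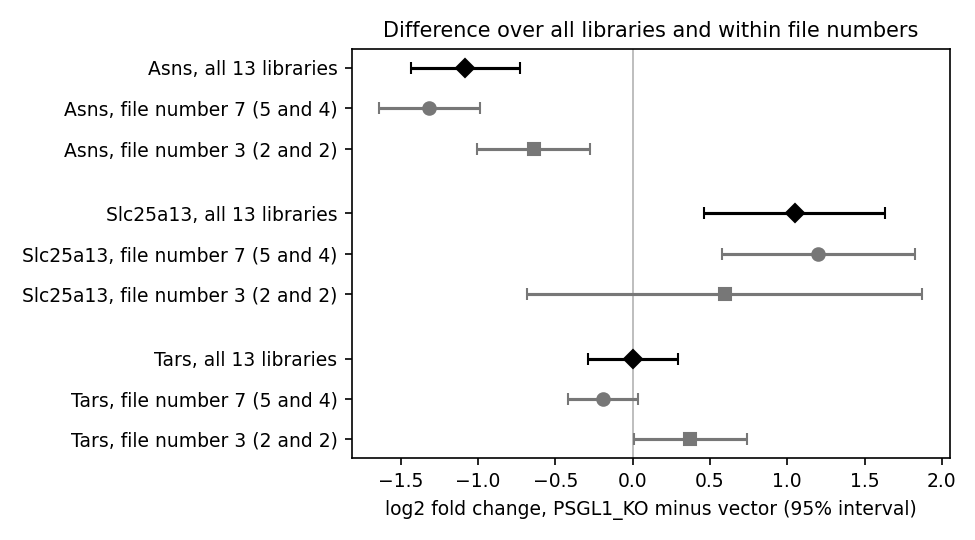
The x axis gives the log2FC of PSGL1_KO minus vector with its 95% interval, over all 13 libraries (black) and within file numbers 7 and 3 (grey; library numbers in brackets are vector and PSGL1_KO). Asns is below 0 in all 3 rows, at -1.08, -1.31 and -0.64, and Tars changes side, with -0.19 and 0.37 within the file numbers.

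Of the other amino-acid genes that could be read, Rragd and Laptm4b were higher and Mios lower in PSGL1_KO, and 8 did not pass. Of 222 genes in 8 lists of amino-acid metabolism, transport, tRNA charging, stress response and sensing, 17 lie in the stretches of chromosomes 4, 6 and 15 and 14 of these were tested, the 3 members among them. Of the other 11, 2 were higher and 1 lower in PSGL1_KO in the edgeR test. That is 18.2% and 9.09%, against 9.02% and 5.49% of all IDs tested and 22.1% and 2.93% of the 307 protein-coding IDs of the stretches. With 11 genes these shares are 2 genes and 1 gene, and the share called higher was below that of the stretches. The median log2FC was 0.24 for the 11 genes, -0.01 for all IDs and 0.23 for the protein-coding IDs of the stretches.

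All 3 calls fell in the list of sensing upstream of the kinase complex mTORC1, where 5 genes were tested. Over the stretches, 22.1% of protein-coding IDs were called higher and 2.93% lower. The lists were chosen with earlier results of these data known, so where the calls fell may also reflect how the lists were made up. Rragd, a Rag GTPase that brings mTORC1 to the lysosome, rose from 5.60 ± 0.664 to 21.5 CPM, with all 6 PSGL1_KO libraries above every vector library (log2FC 1.94 ± 0.19, adjusted p = 1e-06 in the edgeR test). Laptm4b, a lysosomal membrane protein that takes part in leucine uptake into lysosomes, had 131.5 to 233.9 CPM in vector and 221.6 to 425.2 CPM in PSGL1_KO libraries. It rose by a log2FC of 0.70 ± 0.17, with adjusted p = 0.0092 in the edgeR test, and 5 of 6 PSGL1_KO libraries exceeded every vector library. Laptm4b was also the single tested gene of the amino-acid transporter list, where Slc7a13 had 0 counts in all libraries.

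Mios, a subunit of the GATOR2 complex that signals amino-acid supply to mTORC1, went the same way as Asns. It had 75.8 to 132.5 CPM in vector and 45.1 to 86.7 CPM in PSGL1_KO libraries, with 4 of 6 PSGL1_KO libraries below every vector library. It fell by 0.64 on the log2 scale, with adjusted p = 0.028 in the edgeR test. The call for Mios was lost when vector replicate 1, 2 or 3 or PSGL1_KO replicate 3, 4, 5 or 6 was left out (adjusted p between 0.053 and 0.086 in edgeR). The remaining 2 genes of the list did not pass in edgeR. Bmt2, a sensor of S-adenosylmethionine, had a log2FC of 0.16 (adjusted p = 0.56) and Tmem168 0.28 (adjusted p = 0.22). That Tmem168 has a part in this sensing was not established here. It is counted among the 5 tested genes of the list and the 11 pathway genes above.

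No other enzyme or carrier of the lists passed. In the list of other amino-acid synthesis and breakdown, 0 of 4 genes passed with edgeR or DESeq2, and 0 had an unadjusted p below 0.05, while Agxt2 and Pm20d2 had too few counts to test. Nadk2, the mitochondrial NAD kinase needed for proline synthesis, had a log2FC of -0.04 with an interval from -0.34 to 0.26. Grhpr, which reduces glyoxylate, had -0.28, Aldh1b1, a mitochondrial aldehyde dehydrogenase, -0.22, and Hrsp12 (also called Rida), an imine deaminase, 0.44. Slc25a51, the mitochondrial NAD carrier, was the tested gene beside Slc25a13 in the carrier list and had 0.24, with adjusted p = 0.27 in the edgeR test. Rars2, the mitochondrial arginyl-tRNA synthetase, had 0.27 and adjusted p = 0.49. Slc25a51 and Rars2 also had unadjusted p above 0.05, and DESeq2 called neither. Within file number 3, on 2 libraries per group, Hrsp12, Slc25a51 and Rars2 passed, with log2FC of 0.77, 0.62 and 0.50, and within file number 7 Grhpr passed with -0.39. The list of ATF4 targets had Asns and Tars as its only members in the stretches, and those of aspartate and asparagine synthesis and of cytosolic synthetases had Asns and Tars alone.

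**Figure D4:**
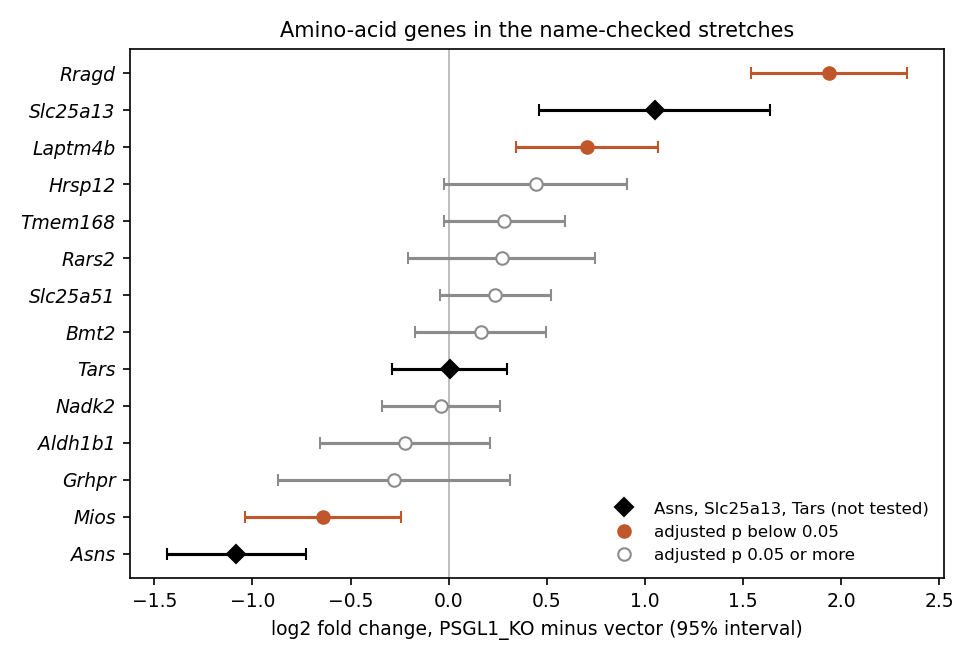
The x axis gives the log2FC of PSGL1_KO minus vector with its 95% interval for the 14 amino-acid genes tested in the stretches, ordered by value. Black diamonds are the members, which were not tested, filled circles passed the edgeR test and open circles did not. Asns is lowest at -1.08, Rragd is highest at 1.94, and Tars stands at 0.00.

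The closest profile to that of Asns over the 13 libraries belonged to Rnf19a. Likeness was the root mean square difference between 2 genes' log2 CPM, each centred on its own mean, over 306 other protein-coding IDs of the stretches. Rnf19a, an E3 ubiquitin ligase, differed from Asns by 0.345 log2 units, Mios by 0.389, Grhl2, a transcription factor of epithelia, by 0.403, Sit1, an adaptor that dampens signals of the T-cell receptor, by 0.404 and Rpl30, a ribosomal protein gene, by 0.420. A flat profile would differ by 0.608, and the median ID by 0.769. Tars held rank 30 at 0.556 and Slc25a13 rank 261 at 1.14. All 5 closest genes had a lower mean in PSGL1_KO, with log2FC of -0.74, -0.64, -0.66, -1.01 and -0.35, so the likeness holds the difference between groups. Exons of Grhl2 and Rpl30 overlap other annotated genes, as do those of Rnf19a with a microRNA, and Rpl30 has near-identical copies elsewhere, so these counts are uncertain.

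**Figure D5:**
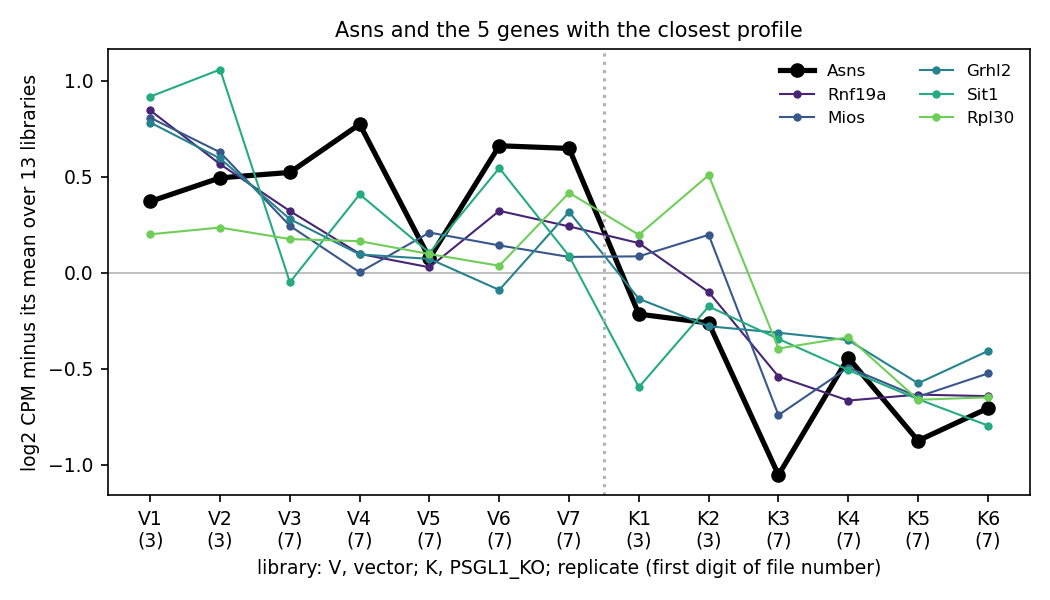
The y axis gives log2 CPM minus its mean over the 13 libraries, and the x axis the vector (V) and PSGL1_KO (K) libraries with the first digit of the file number in brackets. Asns (thick black) and Rnf19a, Mios, Grhl2, Sit1 and Rpl30 are drawn. Asns is above 0 in all 7 vector and below 0 in all 6 PSGL1_KO libraries, while Rpl30, Rnf19a and Mios are above 0 in at least 1 PSGL1_KO library of number 3.

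Most of the nearest tested genes on either side of the members did not pass. Their gaps to the member ran from 33.1 kb, between Tars and Adamts12, to 806.6 kb, between Asns and Dlx6. The nearest tested protein-coding genes, 2 on either side of each member, are 11 genes, of which 2 were higher and 1 lower in the edgeR test, where 22.1% and 2.93% of the protein-coding IDs of the stretches were called. Beside Asns, Sdhaf3, an assembly factor of succinate dehydrogenase, had a log2FC of -0.53 (adjusted p = 0.15) and C1galt1, the galactosyltransferase that builds the core of mucin-type glycans, -0.47 (adjusted p = 0.2). Col28a1, a collagen gene, had 1.19 CPM in vector and 4.4 CPM in PSGL1_KO (log2FC 1.83, adjusted p = 0.026). Dlx6, a homeobox gene that lies between Slc25a13 and Asns, fell from 4.90 to 1.33 CPM (adjusted p = 0.0015), and its exons overlap those of the antisense gene Dlx6os2. On the other side of Slc25a13, Pdk4, a kinase that switches off pyruvate dehydrogenase, was higher with 2.02 (adjusted p = 0.0075), and Pon2, a paraoxonase, had -0.15. Sem1, a proteasome subunit, had -0.08, and near Tars Adamts12 had 0.57, Amacr 0.16, Sub1 0.33 and Zfr -0.12, none of which passed. No annotated exon of another gene overlaps those of Asns, Slc25a13 or Tars.

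The readable genes of the myeloid list had a higher summed level in PSGL1_KO, and their part in the levels of Asns and Slc25a13 was not tested. The summed levels of T-cell, stromal and proliferation markers overlapped between the groups. Markers that lie outside the stretches, among them Ptprc, which encodes CD45, and those that define macrophages, B cells and T cells, could not be read. Of 23 myeloid markers 5 were readable, Lyn, Cd72, Tfec, Atp6v0d2 and Abca1, with a summed level of 321.3 to 470.4 CPM in vector and 750.9 to 1126 CPM in PSGL1_KO libraries, and 4 of 5 were higher, where 22.1% of the protein-coding IDs of the stretches were. The exception was Abca1 (log2FC 0.36, adjusted p = 0.091 in the edgeR test). The marker lists were chosen with earlier results of these data known, so the count of 4 of 5 is a description. Of 24 T-cell markers 4 were readable, with 430.5 to 602 and 360 to 552.8 CPM. Most of this sum was Tox, with means of 368.3 CPM in vector and 313.3 CPM in PSGL1_KO. In the edgeR test Sit1 was lower (log2FC -1.01, adjusted p = 0.0026) and Bach2 higher (1.18, adjusted p = 0.014). Tox (-0.23) and Il7r (-0.02) did not pass. Bach2 had only 6 to 34 counts per library and no fit within file number 3. Of 10 B-cell markers 2 were readable, Cd72 and Pax5, with 29.7 to 77.0 and 151.6 to 319.2 CPM. Most of this sum was Cd72, which is also in the myeloid list, was higher and has exons that overlap those of Tesk1, and Pax5 alone had a log2FC of 0.69 and did not pass (adjusted p = 0.1 in the edgeR test). Of 27 markers of stroma and endothelium 9 were readable, at 863.7 to 2390 and 903.4 to 4387 CPM. Lpar1 alone of 8 tested was higher (1.15, adjusted p = 0.011 in the edgeR test). Col1a2 (0.87), Tpm2 (0.80), Sgce (0.68), Matn2 (0.50) and Cav1 (0.46) did not pass. Among the 8 tested, 3 had an unadjusted p below 0.05 in edgeR, and DESeq2 called 1. Of 24 proliferation genes 5 were readable, at 856.6 to 1497 and 761.6 to 1343 CPM, and 0 passed in edgeR, with 1 at an unadjusted p below 0.05 and 1 called by DESeq2. That gene was Rad1 (-0.36), and Smc2 (-0.12), Ccne2 (-0.12), Melk (-0.09) and Skp2 (0.25) were the others. Some markers that did not pass over all libraries passed in edgeR within 1 file number. Within number 3, on 2 libraries per group, these were Col1a2 (log2FC 0.91), Cav1 (0.81), Abca1 (0.52) and Pax5 (0.90). Within number 7 they were Tox (-0.41) and Rad1 (-0.49). No readable marker was at 0 counts in all libraries.

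The sum of counts over gene IDs ran from 3710817 to 5712566 per library around a median of 4584464. In the stretches of chromosomes 4, 6 and 15 together, 53.5% of 469 protein-coding IDs averaged 20 CPM or more, against 17% of 21389 elsewhere. Names elsewhere on the nuclear chromosomes could not be relied on to match their counts and were not read, Selplg included, so the knockout could not be checked here. Mitochondrial IDs, read only as a group, took 34.5% of the counts of vector replicate 5, and without that library the log2FC was -1.16 for Asns, 1.05 for Slc25a13 and -0.04 for Tars.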

How the data were processed

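Per the labels, total RNA of sorted CD45-positive cells was sequenced from NEBNext Ultra libraries. The authors deposited raw read counts per gene ID, 1 file for each of 13 samples. Per the submitters' processing notes, HISAT2, SAMtools and HTSeq were used with mm10. For their versions, the annotation release and the use of strand, nothing is given in the sources used here. Reads over no annotated feature were 67.3% to 75.4% of all reads, and reads counted on gene IDs were 10.5% to 12.5%. The reads over no feature and the other HTSeq summary rows, 5 in all, stayed out of library sizes and tests. Symbols and coordinates came from GENCODE M21 (GRCm38), which matched 52073 of 56923 IDs without their version, and promoters from RefSeq (GRCm38.p6), which matched 3 of 3 members.

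Groups came from the sample titles. Counts were fitted in edgeR 4.0.16 (R 4.3.3) with TMM factors, filterByExpr, robust quasi-likelihood tests and Benjamini-Hochberg adjustment over all 10422 IDs kept, at a threshold of 0.05. The group was the only term, and the file number was added for its own test. The interval is the log2FC plus or minus the t quantile times its SE, which was taken from the F statistic. The procedure was tested on simulated data. Alternatives were DESeq2 1.42.0, other scalings, no filter, a file-number term, a replicate block and leaving out each library. The members, gene lists and stretches were chosen with earlier results of these data known. Named genes were the members, the tested list genes in the stretches (at most 6 per list, by smallest p), 2 neighbours on either side and the 5 closest profiles to Asns. Behind the values lie 7 to 38 counts per library for Slc25a13 and 1946 to 6016 for Asns.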

Additional observations from a re-analysis of the deposited data

Results flagged for a closer look

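Dixon's criterion for 1 library far from the others was applied to 106 sets of 4 to 7 libraries, and 3 values stood apart, where chance gives about 1 in 20. None of the 14 sets for Asns, Slc25a13, Tars and the ratio of Asns to Tars was among them. PSGL1_KO replicate 6 had the lowest Rragd of its group, 13.3 CPM, with the others at 21.5 to 24.8 CPM. PSGL1_KO replicate 2 had the highest Sgce, 21.3 CPM, with the others at 6.13 to 10.9 CPM. PSGL1_KO replicate 5 had the highest Tpm2, 237.2 CPM, with the others at 43.0 to 104.3 CPM.

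The difference between PSGL1_KO and vector was compared between the file numbers for 46 named genes other than the members. Rpl30 alone passed, and its log2FC within number 7 (-0.69) and within number 3 (0.17) differed by -0.83 in a joint fit (adjusted p = 0.045, edgeR test). Several other genes had an unadjusted p below 0.05 in that test, and their differences were all negative as well. Among them were Melk (-0.80, unadjusted p = 0.0022 in the edgeR test) and Sem1 (-0.74, unadjusted p = 0.0054).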

How the results depend on the processing

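Asns stayed below 0 and Slc25a13 above 0 in every alternative run, and leaving out single libraries gave log2FC from -1.16 to -0.98 for Asns, 0.95 to 1.17 for Slc25a13 and -0.08 to 0.08 for Tars. Values that moved by more than the SD between libraries were those within file number 3, at -0.64, 0.60 and 0.37 for Asns, Slc25a13 and Tars, and Tars at -0.24 with scaling on the protein-coding IDs of the stretches, which moved the median of all IDs to -0.23 (-0.01 with TMM, 0.12 with library totals only). That scaling gave 577 IDs higher and 1334 lower in place of 940 and 572, and 1148 lower in number 7. With the file number as a term, 1435 were higher and 1254 lower, library totals only gave 285 lower, and within numbers 7 and 3 there were 1038 and 1135 lower. Pathway genes called lower were 0 with library totals only and 2 within number 7, and 0 to 1 with single libraries left out, and 5 were called higher within number 3. Between file numbers, the log2FC was -0.50 for Asns and -0.45 for Tars within PSGL1_KO only, given as descriptions, and calls were 1330 higher and 1275 lower within vector only and 1279 lower within PSGL1_KO only. With the longest CCDS transcript as length, chosen after the data were seen, the log2 of Asns over Tars was 0.28 in place of 0.40 in PSGL1_KO. The causes were not tested.

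The titles number replicates 1 to 6 in both groups without saying that a number marks anything shared, and the correlations of same-numbered deviations ran from -0.04 to 0.58, so the numbers were not taken as pairs. With a replicate block the log2FC was -1.08 for Asns, 0.96 for Slc25a13 and 0.01 for Tars, and 953 IDs were lower.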
